A study of Homo sapiens with 4 samples.

Results

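The genes described here make, break down and regulate polyamines, and 10 were listed by symbol: ODC1, AMD1, SRM, SMS, SAT1, SMOX, PAOX, OAZ1, OAZ2 and AZIN1. Of these, 8 had a row among the 18398 transcripts of the deposited tables. The antizyme genes OAZ1 and OAZ2 had none, so both are not analysed here. Expression was measured by RNA sequencing in the human hepatocellular carcinoma lines Huh1 and Huh7, both established lines, each treated either with a negative control siRNA or with an siRNA against ODC1. Each line and siRNA was represented by 1 library, which makes 4 libraries. No label gives the siRNA sequence, the dose or the time of harvest, and none says whether the cultures of a line were independent.

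Polyamines are small positively charged molecules that bind nucleic acids and are needed for growth. Ornithine decarboxylase (ODC1) makes putrescine from ornithine. S-adenosylmethionine decarboxylase (AMD1) provides the aminopropyl groups, which spermidine synthase (SRM) adds to putrescine and spermine synthase (SMS) adds to spermidine. Spermidine/spermine acetyltransferase (SAT1) and polyamine oxidase (PAOX) run the path backwards, and spermine oxidase (SMOX) turns spermine directly into spermidine. Antizymes carry ODC1 protein to the proteasome, and the antizyme inhibitor AZIN1, a relative of ODC1 without decarboxylase activity, binds antizyme in its place. Much of the control of ODC1, AMD1 and SAT1 acts on translation, splicing or protein turnover, which an RNA level does not show.

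Stretches from the start regions of 3 synthesis genes are shown because they carry the E-box, a word that MYC family factors are known to bind, or a TATA word. They come from RefSeq promoters (GRCh38.p14), which hold 8 transcript starts for 5 of the 8 measured members (ODC1, AMD1, SRM, SMS and SAT1). The 250 bases before each start were searched for the E-box CACGTG, which reads the same on both strands, and on the coding strand for TATAA. Capitals mark the word, and each line runs 5′ to 3′.
ODC1, E-box, chr2:10448028-10448057, minus strand: ggccccgggccccgggCACGTGtgcggcgc
SRM, E-box, chr1:11060204-11060233, minus strand: ggccccggccgggcccCACGTGgcccctgg
AMD1, TATA word, chr6:110874740-110874768, plus strand: ggggggagccgggataTATAAgggcggtg
The E-box occurred in 2 of the 8 member windows and in 6.34% of all 35116 windows of this length. The ODC1 copy lies 29 bases before the second of its 2 listed starts, in an intron of the longer gene model. The SRM copy lies 199 bases before its start. The TATAA word was found in 3 of the 8 member windows, of AMD1 and ODC1, and in 13.6% of all windows. The AMD1 word is a single site, 29 and 28 bases before different listed starts. The stretch around the ODC1 word overlaps an exon and is not shown. These are matches of letters and not measured binding sites.

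The spacing of low values gave a depth between 10215332 and 13384836 reads a library. Values are RPKM, reads scaled by transcript length and library depth, so levels of different genes can be compared per length. The reads of ODC1, AMD1, SAT1, SMOX and PAOX came out whole (tolerance 0.01 reads). Those of SRM, SMS and AZIN1 did not, and some low values elsewhere in the tables stood at fractions of a read. Reads of these 3 genes were rounded and rest on GENCODE's own length, so their counting intervals are approximate. For ODC1 the length that gave whole reads was 2062 bases, against 2653 in GENCODE. GENCODE release 29 names 4 pseudogenes after AMD1 and 2 after SRM. All 10 hepatocyte markers reached 1 RPKM in every library, while CDH5 of endothelium and HBB of red cells were at 0 in all. In some library, 4 of 4 cholangiocyte, 4 of 7 fibroblast and stellate and 1 of 4 blood cell markers also reached 1 RPKM. In bulk RNA, fewer expressing cells and less RNA per cell cannot be told apart.

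The siRNA target was examined first. ODC1 (NM_002539, chromosome 2, 10439968 to 10448504 in GRCh38) stood at 103 RPKM in Huh1 and 167 RPKM in Huh7 with control siRNA, and at 25.01 and 7.50 RPKM with ODC1 siRNA. Both control libraries were high and both ODC1 siRNA libraries low, with no overlap. The transcript remaining was 24.2% in Huh1 (95% interval 22.1% to 26.5%) and 4.49% in Huh7 (95% interval 3.81% to 5.27%). These exact binomial intervals, and all intervals below, cover counting error only, and they did not overlap between the lines. ODC1 had the lowest log2 fold change of the 10912 genes counted in Huh1 and of the 11416 in Huh7.

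**Figure D1:**
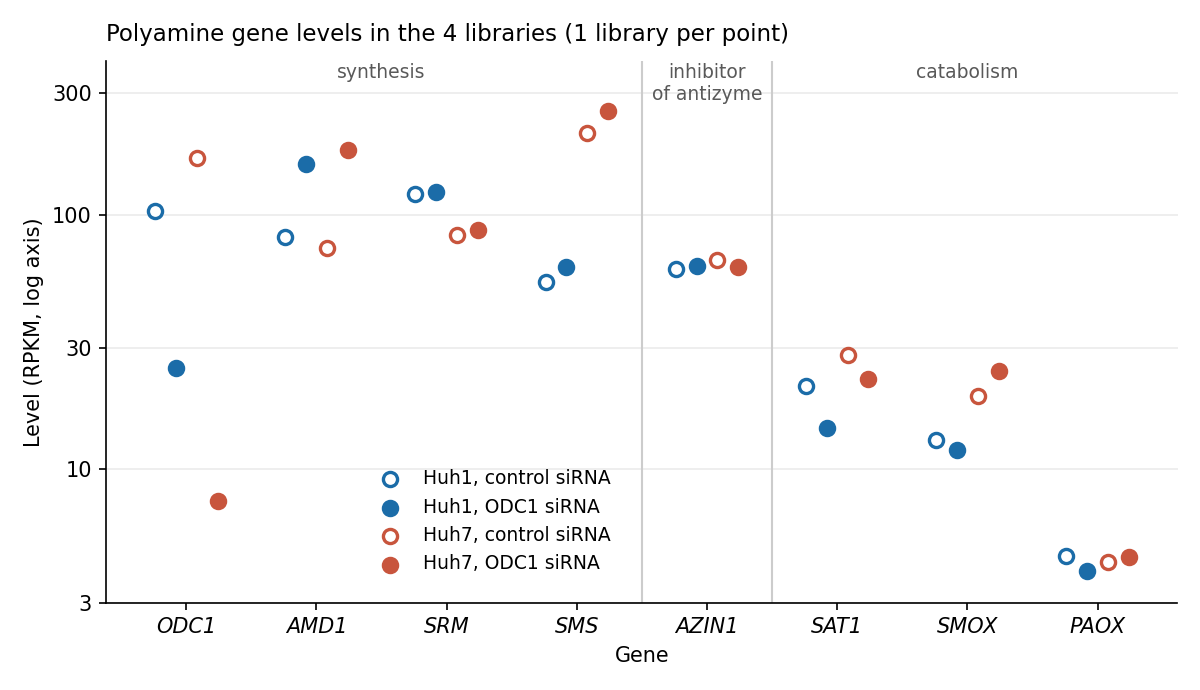
Level of each gene in RPKM (log axis) in the 4 libraries, 1 point a library, with open points for control siRNA and filled points for ODC1 siRNA, and genes grouped by role. ODC1 drops from 103 to 25.01 RPKM (Huh1) and from 167 to 7.50 (Huh7), while AMD1 lies above its control in both lines.

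AMD1 moved the other way. AMD1 (NM_001634, chromosome 6, 110874770 to 110895713) was at 81.5 RPKM in Huh1 and 73.8 RPKM in Huh7 with control siRNA, and at 158 and 180 RPKM with ODC1 siRNA. The libraries with ODC1 siRNA were the higher in each line and did not overlap the controls. The ratio was 1.94 in Huh1 (95% interval 1.86 to 2.02) and 2.43 in Huh7 (2.33 to 2.54), on 3079 to 6279 reads a library. Counted from the largest increase, AMD1 held rank 10 of 10912 genes in Huh1 and rank 10 of 11416 in Huh7. With control siRNA, AMD1 had 0.788 times the RPKM of ODC1 in Huh1 and 0.442 times in Huh7. With ODC1 siRNA it had 6.325 and 23.95 times that of ODC1.

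The aminopropyl transferases differed little by siRNA. Spermidine synthase SRM (NM_003132, chromosome 1, 11054584 to 11060024) went from 120 to 123 RPKM (Huh1) and from 83.5 to 87.3 (Huh7). Both counting intervals of its ratio included 1 (0.959 to 1.09 in Huh1 and 0.965 to 1.13 in Huh7). Spermine synthase SMS (NM_004595, chromosome X, 21940573 to 21994835) went from 54.6 to 62.4 RPKM (Huh1) and from 209 to 255 (Huh7). Its ratios of 1.14 (1.06 to 1.23) and 1.22 (1.17 to 1.27) lay above counting error in each pair of libraries. That compares libraries and not conditions.

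The catabolic genes had lower levels and no shared direction. SAT1 (NM_002970, chromosome X, 23783173 to 23786226), whose enzyme acetylates spermidine and spermine for export or oxidation, went from 21.3 to 14.6 RPKM (Huh1) and from 28.2 to 22.7 (Huh7). Its ratio was 0.682 (0.563 to 0.825) in Huh1 and 0.806 (0.683 to 0.95) in Huh7, so both intervals lay below 1. SAT1 RNA is known to occur with an extra exon that leads to decay, and 1 value per transcript cannot separate such forms.

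SMOX (NM_175839, chromosome 20, 4120980 to 4187747) had 13.03 and 11.9 RPKM (Huh1) and 19.4 and 24.4 (Huh7), control library first. The ratio was 0.914 (0.782 to 1.07) in Huh1 and 1.26 (1.11 to 1.42) in Huh7. The sign thus differed between the lines, and the interval excluded 1 in Huh7 but not in Huh1. PAOX (NM_207127, chromosome 10, 133379234 to 133391694), which oxidises acetylated polyamines, was the lowest member of the set in each library at 4.01 to 4.55 RPKM. On 65 to 88 reads its ratio was 0.881 (0.629 to 1.23) in Huh1 and 1.05 (0.747 to 1.48) in Huh7, so a change of this size was not detectable at this depth.

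AZIN1 (NM_015878, chromosome 8, 102826357 to 102893864) had the narrowest range of the 8 genes relative to its level, 61.1 to 66.5 RPKM. It went from 61.1 to 62.9 RPKM (Huh1) and from 66.5 to 62.04 (Huh7). The ratios were 1.03 (0.969 to 1.09) and 0.933 (0.877 to 0.993). With control siRNA the AZIN1 level was 0.591 times that of ODC1 in Huh1 and 0.399 times in Huh7, and with ODC1 siRNA it was 2.515 and 8.27 times that of ODC1. The antisense gene AZIN1-AS1 overlaps AZIN1 in GENCODE, and whether reads were counted by strand is not given in the sources used here.

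**Figure D2:**
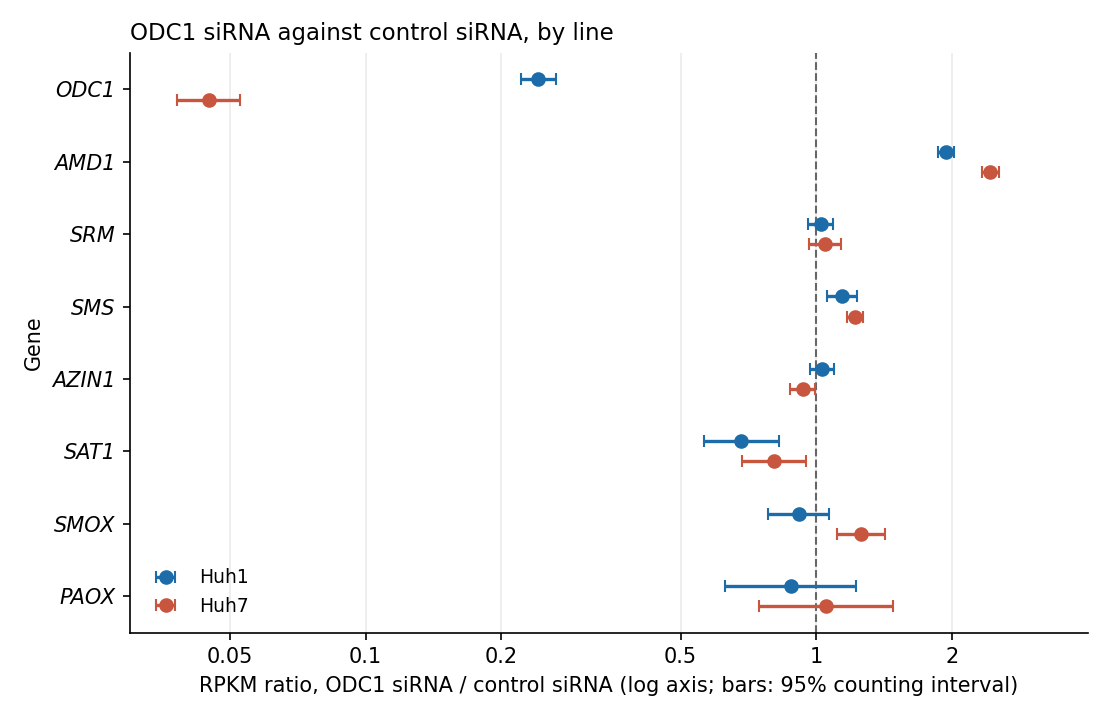
RPKM with ODC1 siRNA divided by RPKM with control siRNA for each gene, in Huh1 and Huh7, on a log axis, where bars are 95% counting intervals and the dashed line is a ratio of 1. ODC1 lies far below 1 and AMD1 at 1.94 and 2.43, SAT1 lies below 1 in both, and SMOX lies on opposite sides of 1.

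Over both lines, the siRNA effect was tested with limma, with line as a term, on log2(RPKM + 1), so fold changes of weakly expressed genes are understated. The 2 lines were the only repeat, which leaves 1 residual degree of freedom. For each gene, that residual is how far its log2 change in Huh7 departs from its change in Huh1. limma combined it with a spread estimated across all genes, which carried the weight of 7.42 degrees of freedom. The p-values, here and for the line comparison below, therefore rest mostly on that shared spread and not on replicate libraries. AMD1 rose, with a mean log2 fold change of 1.11 (SE 0.0846, limma adjusted p = 0.00239), and ODC1 fell by 3.15 on the log2 scale (SE 0.403, adjusted p = 0.0157). By p-value AMD1 ranked 2 and ODC1 ranked 26 among the 12039 genes tested. The other 6 did not pass. SAT1 was at -0.41 (SE 0.0927, limma adjusted p = 0.0637) and SMS at 0.24 (SE 0.0654, limma adjusted p = 0.106). SMOX was at 0.10, SRM at 0.05, AZIN1 at -0.03 and PAOX at -0.04, with limma adjusted p from 0.70 to 0.884.

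Thus 2 of the 8 members passed, 1 in each direction, and 1 of them is the target itself, where 2.12% of all tested genes passed. At least 2-fold on the same scale, ODC1 qualified in Huh1, where 0.0825% of genes did, and ODC1 and AMD1 qualified in Huh7, where 0.771% did. The members' median log2 fold change was -0.04 in Huh1 and 0.06 in Huh7, against 0.02 and -0.003 over all genes counted. The calls of AMD1 and ODC1 were lost without a filter (both adjusted p = 0.517), without a variance trend (0.198 and 0.204) and without the line term (both 1), settings under which limma called 0 genes. Among cell type markers, 8 of 10 hepatocyte genes had a negative mean log2 fold change with ODC1 siRNA, with a median of -0.21 against 0.01 over all genes. Over all genes counted within a line, 55.1% were higher with ODC1 siRNA in Huh1 and 49.5% in Huh7. The lines differed for APOA1, APOH and SERPINA1, at 0.20, 0.20 and 0.04 in Huh1 and at -0.82, -0.09 and -0.39 in Huh7. Of the 10 hepatocyte genes, ALB fell (-0.32 on the log2 scale, limma adjusted p = 0.0232) and TTR rose (0.47, 0.0494), and LUM of the fibroblast list rose (0.39, 0.0403). The hepatocyte markers summed to 5542 and 4874 RPKM (Huh1) and to 2538 and 2020 RPKM (Huh7), control library first, of which ALB alone made up 3447 and 2806 RPKM (Huh1) and 1166 and 920.4 RPKM (Huh7). Their part in the members' changes was not tested.

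Summed over ODC1, AMD1, SRM and SMS, the synthesis genes stood at 360 RPKM with control and 369 RPKM with ODC1 siRNA in Huh1, with 533 and 529 RPKM for Huh7. The total was therefore nearly level while its makeup changed. SAT1, SMOX and PAOX together went from 38.9 to 30.5 RPKM (Huh1) and from 51.96 to 51.7 (Huh7). The order of the genes shifted too. With control siRNA the highest was SRM in Huh1 and SMS in Huh7, with ODC1 at rank 2 in both lines. With ODC1 siRNA, AMD1 was the highest in Huh1 and second to SMS in Huh7, and ODC1 stood at rank 5 in Huh1 and rank 7 in Huh7.

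The lines were then compared. SMS had the widest gap: 54.6 and 62.4 RPKM in Huh1 against 209 and 255 RPKM in Huh7, with both Huh7 libraries above both Huh1 libraries. The ratio of Huh7 to Huh1 was 3.83 with control siRNA (95% counting interval 3.60 to 4.07) and 4.08 with ODC1 siRNA (3.84 to 4.35). SRM, the enzyme one step earlier, stood the other way, at 0.694 (0.647 to 0.745) and 0.709 (0.658 to 0.765) times its Huh1 level. SRM exceeded SMS in Huh1, with an SMS to SRM ratio of 0.454 and 0.507, and SMS exceeded SRM in Huh7, with a ratio of 2.51 and 2.92.

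Among the catabolic genes, SMOX in Huh7 had 1.49 times its Huh1 level with control siRNA (1.31 to 1.71) and 2.05 times with ODC1 siRNA (1.78 to 2.37). SAT1 was 1.32 times (1.13 to 1.54) and 1.56 times (1.28 to 1.91) its Huh1 level. PAOX was at 0.948 (0.688 to 1.30) and 1.13 (0.793 to 1.62), so no difference between the lines was detectable. The line order of ODC1 turned with the siRNA, from 1.61 times higher in Huh7 with control siRNA (1.54 to 1.69) to 0.30 times with ODC1 siRNA (0.25 to 0.358). AMD1 turned slightly, from 0.905 (0.863 to 0.95) to 1.14 (1.10 to 1.18), and AZIN1 was near level, at 1.09 (1.03 to 1.15) and 0.986 (0.925 to 1.05).

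**Figure D3:**
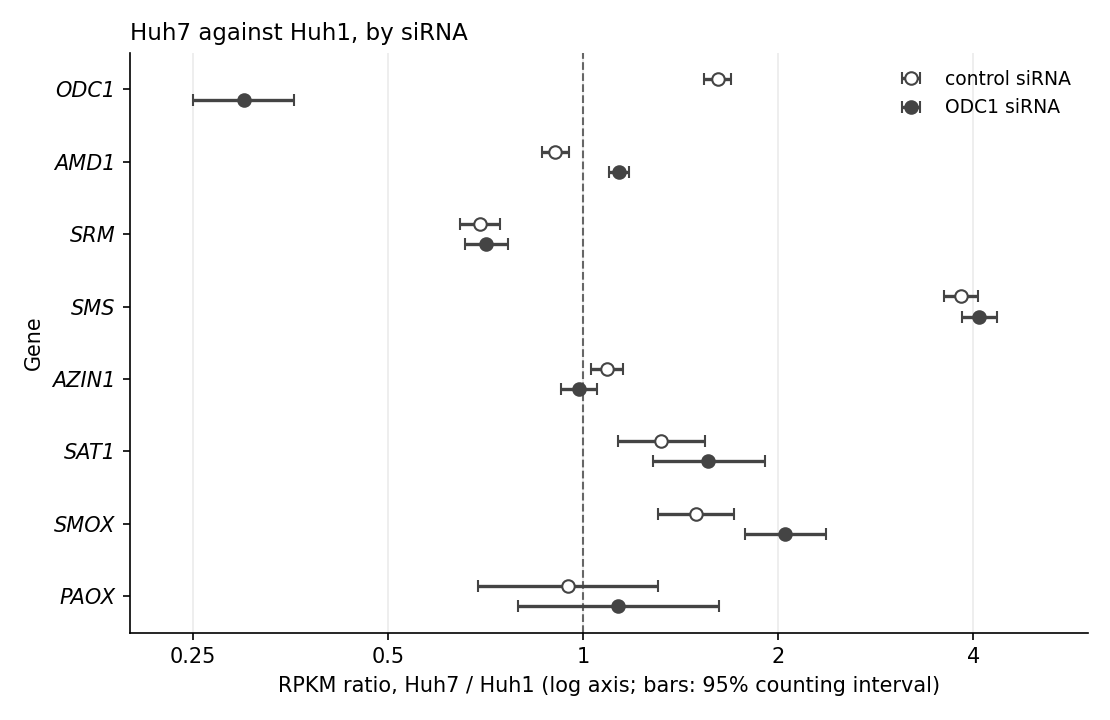
RPKM in Huh7 divided by RPKM in Huh1 for each gene, on a log axis, with control siRNA (open) and ODC1 siRNA (filled), where bars are 95% counting intervals and the dashed line is a ratio of 1. SMS lies near 4 and SRM near 0.7 with either siRNA, while ODC1 changes sides.

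In limma, with the siRNA as a term, the only repeat of each line was its 2 libraries, 1 per siRNA. The p-values therefore do not measure how a line varies between cultures. SMS was higher in Huh7 by 1.97 on the log2 scale (SE 0.0654, limma adjusted p = 3.2e-08). SMOX was higher by 0.76 (SE 0.116, limma adjusted p = 0.000364) and SAT1 by 0.50 (SE 0.0927, limma adjusted p = 0.00119). SRM was lower, at -0.51 (SE 0.0647, limma adjusted p = 0.000121). ODC1 (-0.46, limma adjusted p = 0.32), AMD1 (0.02, 0.837), PAOX (0.04, 0.778) and AZIN1 (0.05, 0.553) did not pass. So 4 of 8 members passed, 3 higher and 1 lower, where 73.9% of all 12039 genes passed, and the share of members is no larger than that background. With control siRNA, SMS was the only member at least 2-fold apart, where 27.2% of genes were. The members' median line difference there was 0.25 on the log2 scale, against 0.14 over all genes, and quantile normalization moved the latter to 0.02.

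The lines also differ in markers of other cell types, whose part in these differences was not tested. The 7 fibroblast and stellate markers summed to 12.1 and 15.8 RPKM (Huh1) and to 285 and 371 RPKM (Huh7). LUM alone made up 11.9 and 15.5 RPKM (Huh1) and 143 and 193 RPKM (Huh7) of these sums. COL1A1 had 0.115 and 0.0763 RPKM (Huh1) and 107 and 128 (Huh7). DCN (at 0 in Huh1 with control siRNA), PDGFRB and ACTA2 stayed under 1 RPKM in all 4 libraries. Of the 4 cholangiocyte markers, KRT19, EPCAM and SOX9 were higher in Huh7, while KRT7 had 84.4 and 84.8 RPKM (Huh1) and 0.66 and 0.485 (Huh7). Of the 4 blood cell markers CD68 alone reached 1 RPKM, at 23.3 and 24.8 RPKM (Huh1) and 3.71 and 6.05 (Huh7). None of the 3 endothelial markers with a row reached 1 RPKM.

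SMS and SAT1 share the short arm of the X chromosome, so the genes beside SMS were examined, a choice made after the SMS values were seen. The 3 nearest genes on either side that reached 1 RPKM in some library were taken. CNKSR2 and YY2 stayed under 1 RPKM in both Huh1 libraries and entered only through Huh7, where they are high, so no count over the 6 genes is read as a result. Among the other 4, the log2 line difference with control siRNA was 2.11 for MBTPS2, 1.95 for PRDX4 and 1.24 for ACOT9, beside 1.92 for SMS. PHEX, the next of them after SMS, was at 0.26, and SAT1, further along, at 0.39. PHEX had only 1.12 to 1.78 RPKM in the 4 libraries, a level at which log2(RPKM + 1) understates a difference. CNKSR2 was at 1.92 and YY2 at 1.48. YY2 lies within MBTPS2, so their reads may be mixed. Over the 399 X chromosome genes with at least 1 RPKM in some library the median was -0.05. Of these, 24.3% were at least 2-fold higher in Huh7, against 16.8% of all 12039 genes. The same limit admitted genes such as CNKSR2 and YY2 to both shares, so these are not read as a result either.

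**Figure D4:**
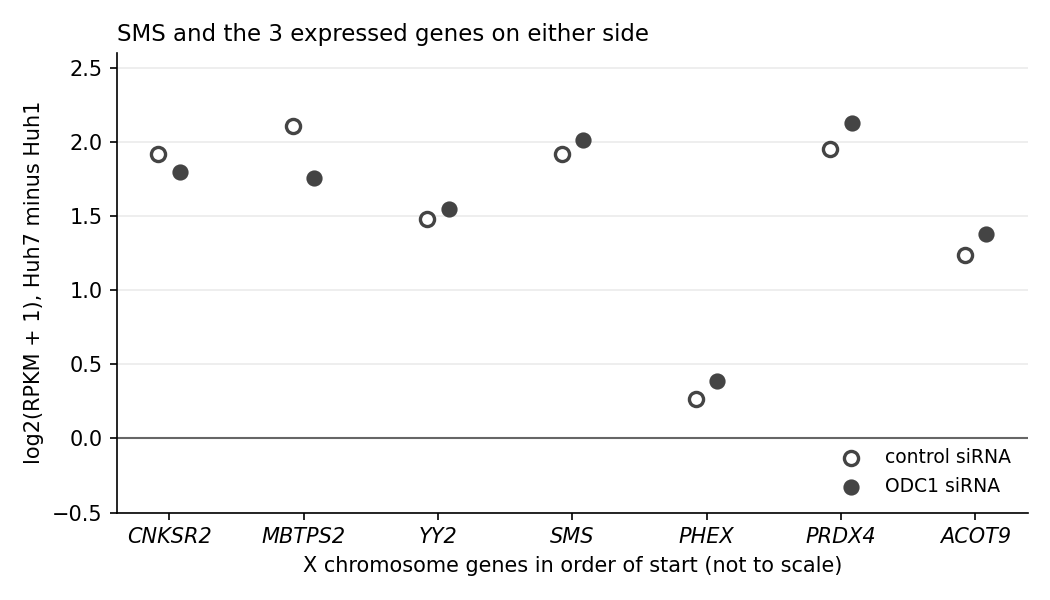
Difference between Huh7 and Huh1 in log2(RPKM + 1) for SMS and the 3 expressed genes on either side, in order along the X chromosome (spacing not to scale), with control siRNA (open) and ODC1 siRNA (filled). SMS stands at 1.92 and 2.01 and PHEX, with 1.12 to 1.78 RPKM, lowest at 0.26 and 0.39. CNKSR2 and YY2 are shown only because they reached 1 RPKM in Huh7.

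Relatives of these genes were examined as well. SAT2, named for its likeness to SAT1, was at 44.9 to 54.9 RPKM in the 4 libraries, above SAT1 in each. SATL1, a SAT1-like gene on the X chromosome, had 1.81 and 2.24 RPKM (Huh1) and 0.0381 and 0.182 (Huh7). AZIN2 (listed as ADC) and the diamine oxidase gene AOC1 (listed as ABP1) stayed at or under 0.113 and 0.0308 RPKM. Of these, SAT2 and SATL1 were tested. Neither passed for siRNA, and the line difference of SATL1 is given without a test, since it reached 1 RPKM only in Huh1, where it is high.

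Neighbouring pathways were counted for the siRNA effect over both lines. Of the 4 genes of hypusine formation, which uses spermidine to modify the translation factor eIF5A, EIF5A2 fell by 0.71 on the log2 scale (limma adjusted p = 0.0276) and the other 3 did not pass. EIF5A2 went from 8.90 to 5.36 RPKM (Huh1) and from 5.57 to 2.83 (Huh7), and its adjusted p was 0.0534 with quantile normalization. EIF5A itself, the major form, had 496 and 504 RPKM (Huh1) and 351 and 324 (Huh7). None of 11 tested transport genes, 12 ornithine genes, 13 genes of S-adenosylmethionine and methylthioadenosine and 3 regulators passed, and their medians were 0.09, -0.11, 0.04 and -0.06, against 0.01 over all genes.

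The genes whose pattern over the 4 libraries lay nearest were found by the Euclidean distance between centred log2(RPKM + 1) values, among 9508 other genes with at least 5 RPKM in some library. For AMD1 the nearest were G3BP2 (distance 0.216) and TMEM93 (0.270). G3BP2 went from 38.2 to 68.8 RPKM (Huh1) and from 38.5 to 78.9 (Huh7). For ODC1 they were RFK (2.06), OSGIN2 (2.391) and DYNLT3 (2.394), at larger distances than for AMD1. The distance was not scaled for the size of a change, and ODC1 had the lowest log2 fold change in each line. The larger distances are therefore not read as a result. RFK went from 22.96 to 11.54 RPKM (Huh1) and from 36.77 to 10.02 (Huh7).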

How the data were processed

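Per the labels' protocols, TruSeq libraries were built from total RNA. The submitters' processing notes name CASAVA 1.8.2, TopHat2 2.0.9 and the build hg19. Which program and annotation release gave the values was not given in the sources used here, nor was strand use. The authors deposited 1 RPKM value per RefSeq transcript and library, so no count model was used. Depth was taken from the commonest product of RPKM under 0.3 and GENCODE release 29 length. Members' reads used the length nearest GENCODE's, within 40%, that made all 4 values whole, and otherwise GENCODE's own. Coordinates are GRCh38. Ratios have exact Clopper-Pearson intervals (scipy 1.17.1). Genes reaching 1 RPKM in any library were fitted across all genes with limma 3.58.1 (R 4.3.3) on log2(RPKM + 1), with terms for line and siRNA, an intensity trend and Benjamini-Hochberg adjustment at 0.05. On simulated data the fit recovered most of the genes changed 4-fold, but in some draws the share of false calls exceeded the adjusted threshold. The simulated data held no difference in siRNA effect between the lines, which is the only residual of the real fit. They therefore do not show how many real changes the fit recovers. The share of false calls in these 4 libraries was not tested. The lines pair control and ODC1 libraries through the line term. Between 2 libraries, genes reaching 1 RPKM in either were counted when they differed 2-fold. All members were named. All relatives were named too. Genes of other pathway lists were named when they passed in limma for siRNA or line (up to 4 a list and coefficient, by largest mean change) or differed 2-fold within a line, and the 3 genes nearest to ODC1 and to AMD1 were named, except 1 that is not reported here. Members and lists were chosen with earlier results of these data known. Alternatives were other scalings, pseudocounts, filters, trends and terms, a 1.5-fold rule, and each library left out.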

Additional observations from a re-analysis of the deposited data

Results flagged for a closer look

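With 1 library a group, each difference below is a contrast of single libraries and was not tested. The siRNA effect had opposite signs in the lines for 3 genes. How many of all genes do so was not counted, so the number is not read as a result. The counting interval of the ratio included 1 in both lines for PAOX, and in Huh1 for SMOX and AZIN1. The log2 effect in Huh7 minus that in Huh1 was 0.44 for SMOX (0.31 against -0.12), 0.21 for PAOX (0.06 against -0.15) and -0.14 for AZIN1 (-0.10 against 0.04). The difference between the lines changed sign with the siRNA for 4 genes, again without a count over all genes. Here the interval included 1 with either siRNA for PAOX and with ODC1 siRNA for AZIN1. The log2 difference of Huh7 from Huh1 with ODC1 siRNA, minus that with control siRNA, was -2.30 for ODC1 (-1.61 against 0.69), 0.32 for AMD1 (0.18 against -0.14), 0.21 for PAOX (0.15 against -0.06) and -0.14 for AZIN1 (-0.02 against 0.12).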

How the results depend on the processing

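For the siRNA effect over both lines, the 255 genes limma called became 52 with quantile normalization, 464 with upper quartile scaling, 54 with a pseudocount of 0.1, 108 with a filter at 5 RPKM, and 0 without a filter, without a variance trend and with no replicate block (no line term). Under those last 3, 1725, 1830 and 22 genes had an unadjusted p under 0.05. A trend on counting variance called 330. AMD1 and ODC1 passed under the 5 other settings, with adjusted p up to 0.0138 and 0.0471. SAT1 passed with upper quartile scaling alone (adjusted p = 0.0331). EIF5A2 also missed the threshold with the 5 RPKM filter and with the smaller pseudocount. Between the lines, SMS and SRM passed under every setting run, while SAT1 (0.0748) and SMOX (0.0968) lost the call without a filter, and SAT1 also without the siRNA term (0.071). Uncalled line differences changed sign with upper quartile scaling for AMD1 (-0.0692), PAOX (-0.0324) and AZIN1 (-0.0389), and with quantile normalization for PAOX (-0.127) and AZIN1 (-0.0107). The cause was not tested. Genes at least 2-fold apart went from 9 to 45 in Huh1 and from 88 to 236 in Huh7 with a pseudocount of 0.1. A 1.5-fold rule gave 150, 650 and, between the lines with control siRNA, 5676 in place of 3239. Leaving out a library leaves no residual degree of freedom, so the members then have estimates only. The estimate comes from the intact line or siRNA, between -4.30 and -2.01 for ODC1 and between 0.95 and 1.27 for AMD1. PAOX has no value with a filter at 5 RPKM.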

Other observations

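Genes of neighbouring pathways that passed between the lines are given as values, since the share of each list that passed was not tested against the 73.9% of all genes that passed. Of 12 ornithine genes tested, 5 were higher and 5 lower in Huh7 by limma. These counts include OTC and NAGS, which reached 1 RPKM only in the line where they are high, so they are not read as a result. GATM, which uses arginine to make a creatine precursor, had 138 and 152 RPKM (Huh1) and 9.19 and 5.26 RPKM (Huh7), control library first. ASS1 of the urea cycle had 28.7 and 28.3 RPKM against 1.95 and 1.06 RPKM, and its partner ASL was also lower in Huh7 (-1.61 on the log2 scale, limma adjusted p = 2.91e-07). OTC had 1.86 and 2.596 RPKM against 0.0498 and 0.119 RPKM. The 5 higher genes, listed after their values were seen, were ARG1 (1.39 on the log2 scale), SLC25A15 (0.69), ARG2 (0.67), OAT (0.32) and NAGS. NAGS had 0.0361 and 0 RPKM (Huh1) and 1.03 and 0.284 RPKM (Huh7), so it entered only through Huh7, where it is high.

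Of 13 genes of S-adenosylmethionine and methylthioadenosine, 4 were higher and 7 lower in Huh7. The synthetase MAT1A had 8.23 and 10.2 RPKM against 0.759 and 0.863 RPKM. MAT2A, the form known from dividing cells, had 233 RPKM in both Huh1 libraries and 98.5 and 90.7 RPKM in Huh7. AHCYL1 was lower in Huh7 by limma (-1.12 on the log2 scale) and APIP of methionine salvage higher (0.85). Of 11 transport genes, 3 were higher and 5 lower. GPC1, a glypican, had 82.9 and 89.6 RPKM against 4.004 and 4.8 RPKM. SLC22A3 had 16.9 and 18.7 RPKM against 0.408 and 0.487 RPKM, SLC47A1 was at -3.36 on the log2 scale, and SLC18B1 at -0.82. Of the 4 hypusine genes, EIF5A (-0.57) and EIF5A2 (-0.66) were lower in Huh7 and DHPS was higher (0.83). In the list of regulators, MXD1 (-1.83) and MAX (-0.32) were lower, and PSMB6, a proteasome subunit placed in that list, was higher (0.67). MYC of the same list had no row. OTC, MAT1A and SLC22A3 reached 1 RPKM only in Huh1, where they are high, and NAGS only in Huh7 with control siRNA. Each entered its list's count through that line alone, so the counts of those lists are not read as results.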
